A study of Mus musculus with 9 samples.

Results

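The endocardial endothelial cells of the mouse heart were described here from single-nucleus RNA sequencing (sNuc-seq) of 9 mice, 3 in each of 3 groups. All mice were C57BL/6 and 8 weeks old as supplied, before a week of acclimatization and the gavage. The study states that the sequenced tissue lay below the ligation site, so the nuclei do not stand for the whole heart. The sham group had the chest operation without tying of the left anterior descending coronary artery and received the vehicle, a sodium carboxymethyl cellulose solution. The ischemia-reperfusion (I/R) group received the same vehicle, and its artery was closed for 30 min and then reopened for 24 h. The SBP group, labelled MUSKARDIA, was given Shexiang Baoxin Pill by gavage for at least 7 days before the same ischemia and reperfusion. All 3 groups shared the gavage and the operation, so the vehicle and the thoracotomy were common to every comparison. A nucleus was taken as endocardial when it held at least 1 molecule (UMI) of at least 3 of 8 genes (Npr3, Tmem108, Nrg1, Smoc1, Cdh11, Chrm3, Hmcn1 and Cytl1), of at least 1 of 5 pan-endothelial genes (Pecam1, Cdh5, Ptprb, Egfl7 and Emcn), of no more than 1 of 4 lymphatic genes (Mmrn1, Reln, Flt4 and Prox1) and of no more than 2 of 6 genes of other lineages (Rbm20, Ldb3, Mhrt, Abca8a, Scara5 and Csf1r). The rule found 3951 of 49171 nuclei, 8.035% of the series. The sham samples gave 454, 592 and 286 endocardial nuclei, the I/R samples 297, 437 and 389, and the SBP samples 695, 372 and 429.

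The endocardium is the endothelial sheet that lines the chambers and covers the valves. In the embryo it sends neuregulin and Notch signals to the muscle beneath it, gives rise to valve mesenchyme and contributes coronary vessels, and in the adult it forms the barrier between chamber blood and myocardium. Npr3, the clearance receptor that removes natriuretic peptides, Nrg1, the neuregulin that acts on ErbB receptors of cardiomyocytes, and Cytl1, a small secreted protein, are among its known markers.

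Levels are given as CPM, the UMIs of a gene per 1000000 UMIs, summed over all endocardial nuclei of a mouse, and are compared between samples for one gene at a time. Beyond the genes of the rule, the nuclei carried many transcripts that were scarce in the other endothelial nuclei of the same hearts. Cgnl1, a junction protein, stood at 1804 against 139 CPM in the remaining 8387 blood endothelial nuclei, as the mean over 9 mice. Vwf, the clotting factor carrier, stood at 1309.5 against 220.5 CPM, and Plvap, the protein of endothelial diaphragms, at 92 against 15.7 CPM. The transcription factors Foxc1 and Hand2 were at 99.2 against 16 CPM and at 75.9 against 8.36 CPM. Of the known endocardial factors, Nfatc1 differed little, at 97.8 against 75.6 CPM, and Tbx20 was lower, at 73.2 against 92.2 CPM. All of these are genes of the nuclei that were sorted by the rule, so they describe the set and were not tested.

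Ranked by the ratio to the other endothelial nuclei, the 20 leading genes outside the rule were higher in 9 of 9 mice. They included the basement membrane collagen genes Col4a3 at 495 against 19.4 CPM and Col4a4 at 525 against 26.6 CPM, whose chains form a network distinct from that of Col4a1 and Col4a2. The transmembrane collagen gene Col23a1 was at 213 against 10.6 CPM. Among adhesion and guidance genes better known from neurons, Nrxn3, a neurexin, was at 721 against 37.2 CPM, Epha7, an ephrin receptor, at 874 against 44.8 CPM and Gpm6a, a membrane glycoprotein, at 377 against 23.3 CPM. The genes of fetal growth H19 and Plagl1 were in the same list, H19 at 211 against 13.9 CPM and Plagl1 at 194 against 10.1 CPM. Dpp4, the dipeptidyl peptidase that cleaves incretins, was at 233 against 12.6 CPM, and Rps6ka2, a ribosomal S6 kinase, was at 1820.5 against 121 CPM. The 10 genes at the other end of the order were lower in 9 of 9 mice and held capillary genes. Car4, the carbonic anhydrase on the capillary surface, was at 9.63 against 82.8 CPM, Aqp7, a glycerol channel, at 8.17 against 77.5 CPM, Btnl9 at 27.7 against 249.6 CPM and Rgcc at 37.3 against 336 CPM.

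**Figure D1:**
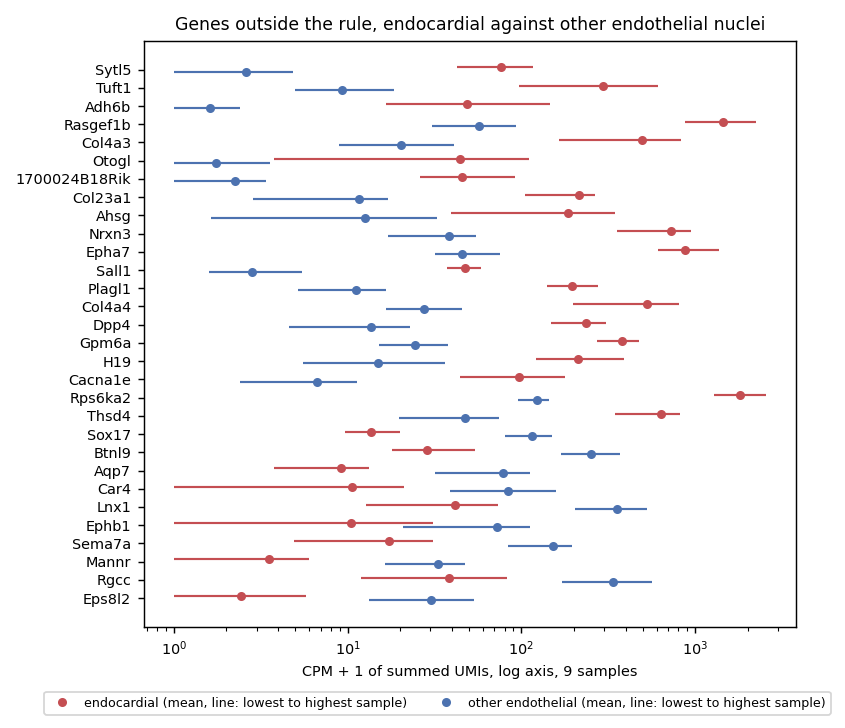
Mean level (CPM + 1, log axis) of the 20 genes outside the rule with the highest and the 10 with the lowest ratio of endocardial (red) to other blood endothelial nuclei (blue), with lines from the lowest to the highest of 9 samples. Col4a3 and Nrxn3 lie far to the right in endocardial nuclei, and Car4, Aqp7 and Btnl9 in the other endothelial nuclei.

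The count of 3 genes set the edge of the group. In the 1878 nuclei that met the other conditions with exactly 2 of the 8 genes, Cgnl1 stood at 144.8, Vwf at 207 and the capillary gene Rgcc at 155.3 CPM. The 576 nuclei with exactly 3 genes held Cgnl1 at 443.1, Vwf at 664.3 and Rgcc at 76.65 CPM, and the 509 nuclei with 4 genes held them at 1293.0, 1288.4 and 40.08 CPM. With all 8 genes present, in 180 nuclei, the levels were 2665.6, 1556.8 and 17.12 CPM. These are levels summed over nuclei, so a mixture of endocardial and capillary nuclei cannot be told apart from nuclei of intermediate profile.

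Clustering of the 3951 nuclei alone gave 8 clusters, which were used to look inside the group and carry no test. Cluster 1 held 1743 nuclei (44.12%) and was led by Gm47771, Cacna1e, a calcium channel subunit, the injury transcript Spp1 (124.7 against 42.11 CPM) and Otogl. Cacna1e, Otogl and, further down, Ahsg and Epha7 also marked the whole group. Cluster 2 held 1087 nuclei (27.51%). Its leading genes included heart muscle transcripts, Actc1 at 377.5 against 103.8 CPM in the other endocardial nuclei, Hrc at 85.2 against 25.72 and Pgam2 at 99.05 against 33.6 CPM. Comp, at 71.36 against 23.05 CPM, Adamts17, Tuba4a and Dapk2 were among the leading genes too. Cluster 2 took 70.7, 71.79 and 69.93% of the endocardial nuclei of the sham samples, but 1.144 to 8.602% of those in the other 6 samples. Clusters 1 and 2 together thus split the nuclei largely into sham and the 2 groups with ischemia, and neither was read as a cell type.

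One library stood apart. Cluster 3, with 454 nuclei (11.49%), was led by the leukocyte adhesion genes Sele, at 44.66 against 0.4008 CPM, and Selp, at 251 against 16.03 CPM, with Olr1, Saa3, Igfbp5 and Ccl2 behind them. It held 59.73% of the endocardial nuclei of I/R replicate 2, 15.97% of those of SBP replicate 1 and 10.49% of those of SBP replicate 3, and no more than 3.856% of any other sample. Of the 8 genes of the rule, its nuclei held less Npr3 (1355.8 against 1853.9 CPM), Nrg1 (1758.6 against 3060.7), Chrm3 (1384.4 against 2841.6) and Hmcn1 (3299.3 against 3816.6), about as much Tmem108, Smoc1 and Cytl1, and more Cdh11 (1851.5 against 1436.6). Vwf, at 1776.5 against 1269.8 CPM, was higher too. Droplet barcodes recurred between libraries in 4 to 14 cases per pair.

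Some nuclei went against the name. Cluster 4 (396 nuclei, 10.02%) was led by capillary genes, Gm12002, Btnl9, Car4, Meox2 and Rgcc, and the summed level of the capillary list was 6390.1 against 1896.2 CPM in the other endocardial nuclei. Cluster 5 (112 nuclei, 2.835%) carried fibroblast genes such as C7, Tnc and Meg3, with the fibroblast list at 11069.4 against 2029.7 CPM and Npr3 at 154.4 against 1885.6 CPM. Cluster 7 (45 nuclei, 1.139%) carried the leukocyte genes Ikzf3, Il7r and Skap1, and its myeloid list stood at 7316.7 against 396.9 CPM. Cluster 8 (35 nuclei, 0.8859%) was led by heart muscle genes, with the cardiomyocyte list at 38526.9 against 3918.3 CPM and Npr3 at 78.15 CPM. Leaving out clusters 5, 7 and 8 took away 192 nuclei (4.86%), and leaving out cluster 4 as well took away 588 (14.88%). The median nucleus of clusters 5 and 8 held 2774 and 4829 UMIs, against 1505 to 2319 in the other 6 clusters. No doublet caller was run, and whether these nuclei are doublets was not tested. These 2 reduced sets, chosen after the data were seen, were fitted beside the full set.

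Cluster 6 was small, with 79 nuclei (1.999%), and was led by Arnt2 (246.6 against 0.3576 CPM), Fam155a, Hapln1, Hecw1 and Lsamp, a neuronal adhesion protein of the IgLON family, at 6346.7 against 71.64 CPM. It held less of most endocardial genes than the other endocardial nuclei, with Npr3 at 404.8 against 1824.6, Smoc1 at 83.75 against 582.8, Chrm3 at 595.6 against 2704.7 and Vwf at 395.5 against 1359.8 CPM, but more Cdh11, at 2591.7 against 1462.4 CPM. In the study the endocardium was divided into cells with and without Lsamp. Of the nuclei of cluster 6, 49.37% held a Lsamp UMI, against 7.593% of the other endocardial nuclei. A Lsamp UMI was found in 7.93, 16.22 and 6.993% of the endocardial nuclei of the sham mice, in 7.407, 5.721 and 4.113% of those of the I/R mice and in 6.906, 4.57 and 12.35% of those of the SBP mice. Myeloid nuclei, which are not known to express the gene, gave 4.29 to 10.98% and the other endothelial nuclei 4.7 to 13.05%, at median depths of 1352 to 1950 and 1002 to 1276.5 UMIs against 1420 to 1898 in endocardial nuclei. Thinned to 1000 UMIs each, with shallower nuclei left out, the endocardial nuclei gave 4.167, 10.57 and 5.128% (sham), then 2.767, 2.769 and 1.235% (I/R) and 2.914, 2.572 and 5.158% (SBP). After the same thinning, myeloid nuclei gave 1.749 to 8.257% and other endothelial nuclei 2.519 to 10%. The classes were assigned again after thinning, and these endocardial shares include cluster 6, which held from 0 to 5.128% of a sample's endocardial nuclei. The 7.593% outside cluster 6 lay within the unthinned ranges of the myeloid and other endothelial nuclei, so no expression was read from it.

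**Figure D2:**
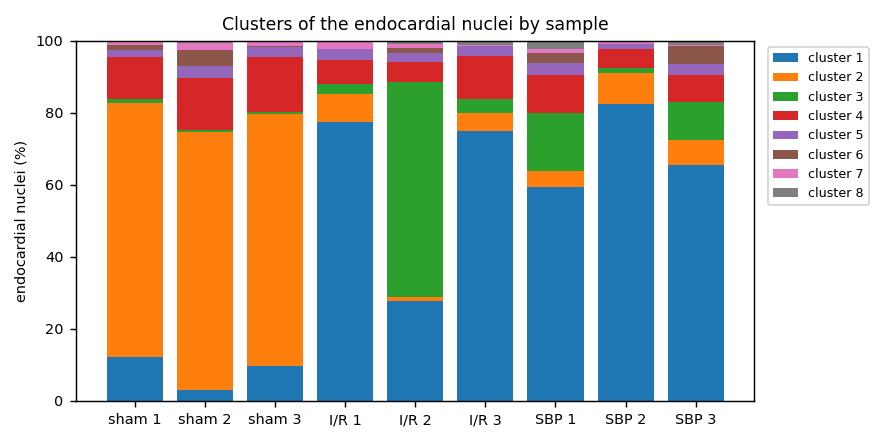
Share of each sample's endocardial nuclei (%) in the 8 clusters. Cluster 2 fills 69.93 to 71.79% of the sham bars, and cluster 3 fills 59.73% of the bar of I/R replicate 2.

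Endocardial nuclei made up 9.921, 10 and 5.171% of all nuclei in the sham samples, 4.628, 8.43 and 6.858% in the I/R samples and 13.72, 6.549 and 8.372% in the SBP samples. The means were 8.365% ± 2.766, 6.639% ± 1.911 and 9.546% ± 3.725 (SD, n = 3 mice each). All 3 groups overlapped. Of the endothelial nuclei they made up 29.98% ± 10.18 in the sham hearts, 27.05% ± 5.781 in I/R and 32.68% ± 6.171 in SBP. That total left out nuclei with only 1 pan-endothelial gene unless they were endocardial or lymphatic, so these shares depend on the unequal thresholds. The log2 ratio of the share of all nuclei was -0.31 (SE 0.40) for I/R against sham, 0.50 (SE 0.40) for SBP against I/R and 0.18 (SE 0.44) for SBP against sham, with p = 0.5, 0.5 and 0.7 in the two-sided exact permutation test over mice. For the share of endothelial nuclei the ratios were -0.11, 0.28 and 0.17, with exact permutation p = 0.9, 0.3 and 0.8. Adjusted over these 6 comparisons, each p was 0.9, and with 3 mice against 3 no p under 0.1 was possible. A difference in the share of endocardial nuclei was not detectable in these 9 mice. With none of the 6 genes of other lineages allowed in a nucleus, the ratios for I/R against sham turned to 0.30 for all nuclei and 0.51 for endothelial nuclei, and those for SBP against sham came to 0.81 and 0.80 (p = 0.5 and 0.3, and 0.2 for both, in the exact permutation test). Leaving out sham replicate 3 or SBP replicate 1 turned the sign of the SBP against sham ratio, to -0.13 and -0.11.

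**Figure D3:**
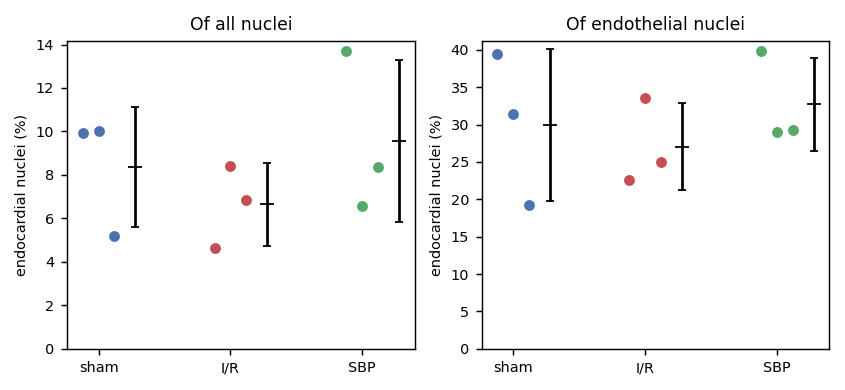
Endocardial nuclei as a percentage of all nuclei and of endothelial nuclei, one point per mouse with the group mean and SD. The ranges of the 3 groups overlap in both panels.

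The 8 endocardial genes chose the nuclei, so each was measured again in nuclei selected by the other 7. None of the 8 differed between groups in limma's test at an adjusted p of 0.05, in any of the 3 comparisons. Npr3 was at 2077, 1391 and 2183 CPM in sham, 2314, 1437 and 1877 CPM in I/R and 1708, 2192 and 1976 CPM in SBP. The study reported Npr3 as raised by SBP, from all endothelial cells and from tissue sections. In the endocardial nuclei here the groups overlapped fully. The log2 fold change was 0.08 (95% confidence interval -0.37 to 0.53) for SBP against I/R and -0.01 (-0.46 to 0.45) for I/R against sham. Chrm3, a muscarinic acetylcholine receptor, had the lowest value for I/R against sham, log2 fold change -0.75, SE 0.27, adjusted p = 0.2632 in limma's test, with an interval of -1.35 to -0.15. Hmcn1, a large matrix protein gene, followed with log2 fold change -0.61, SE 0.35, adjusted p = 0.5087 by limma, and Cytl1 gave log2 fold change -0.60, SE 0.25, adjusted p = 0.3225 by limma. Nrg1 varied widely within every group, at 2417, 1427 and 3345 CPM in sham, 6031, 1664 and 4304 CPM in I/R and 2112, 6059 and 2322 CPM in SBP. Its highest value in each group was far above its lowest, and its interval for I/R against sham ran from -0.74 to 2.01. Tmem108 was the gene with the lowest adjusted p in SBP against sham, log2 fold change 0.56, SE 0.17, adjusted p = 0.2242 in limma's test, and Cdh11, a mesenchymal cadherin, gave log2 fold change 0.42, SE 0.21, adjusted p = 0.4417 for I/R against sham.

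Comparing I/R with sham asked what the endocardium had changed 24 h after reperfusion. Of 9924 genes tested within endocardial nuclei, 58 rose (0.584%) and 28 fell (0.282%) in limma's test (p of at most 0.05 after Benjamini-Hochberg adjustment and a log2 fold change beyond 0.25). In 1738 genes (17.5%), all 86 called ones among them, the I/R and sham values were fully apart. An unadjusted p under 0.05 was reached by 1336 genes. The metalloprotease gene Adam12, the inhibitor gene Timp1, the collagen gene Col1a1, the cytokine receptor gene Csf3r and Spp1 were on the rising side. The heart muscle genes Myl2 and Hrc, the matrix gene Ltbp4 and the clock output gene Dbp were on the falling side.

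The class of nuclei in which each called gene was most abundant in the same hearts was read from plain CPM without the scaling used in the fit. Endocardial, other endothelial, cardiomyocyte, fibroblast and myeloid nuclei were compared. The 862 lymphatic endothelial and 9386 unclassed nuclei were not, so a higher level there would not be seen. Of the 58 genes that rose, 32 were highest in myeloid nuclei, 23 in fibroblasts, and 1 each in endocardial nuclei (Kif26b), other endothelial nuclei (Eef1a1) and cardiomyocytes (Cdc14b). Of the 28 that fell, 10 were highest in cardiomyocytes, 9 in other endothelial nuclei, 6 in fibroblasts, 1 in myeloid nuclei and 2, Col25a1 and Trim65, in endocardial nuclei. Among all 9924 genes tested, 3068 were highest in myeloid nuclei, 1958 in fibroblasts, 1497 in cardiomyocytes, 1797 in other endothelial nuclei and 1604 in endocardial nuclei. Marker lists of other cell types were summed within the endocardial nuclei, with none of their genes at 0. The summed level of 9 myeloid markers was 336.4 to 390.7 CPM in sham, 521.4 to 848.9 CPM in I/R and 188 to 474.7 CPM in SBP. That of 8 cardiomyocyte markers was 5738.5 to 7233.4, 3397.2 to 4878.1 and 3033.4 to 4540.7 CPM, and that of 9 fibroblast markers, whose ranges overlapped, was 1971.8 to 2900.2, 2267.0 to 3457.1 and 2121.7 to 2929.2 CPM. Their part in the calls was not tested. When a nucleus was allowed none of the 6 genes of other lineages, 7 genes passed, all among the 86 (Myl2, Col1a2, Ltbp4, Adam12, Tnnc1, Pgam2 and Ckmt2). Thinning each nucleus to 1000 UMIs, or testing the means of the deposited ln values, changed the share of called genes that were higher from 67.4% to 44.4 and 37.2%, with 18 of 27 and 17 of 43 calls shared with the 86. Without I/R replicate 2 the count was 22 (72.73% higher), and without sham replicates 2 and 3 it was 28 and 24 (85.71 and 87.5% higher).

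Kif26b was the one rising gene whose level over all hearts was highest in endocardial nuclei among the classes compared. It encodes a kinesin family protein that regulates adhesion and cell polarity, and lies at chr1:178529125-178939200, plus strand (mm10, GRCm38). Its level was 35.2, 25.2 and 30.1 CPM in the sham samples, 234, 135 and 110.3 CPM in the I/R samples and 115, 118 and 171 CPM in the SBP samples. Every I/R and SBP sample lay above every sham sample, by a wide margin (log2 fold change 2.31, SE 0.26, adjusted p = 0.001434 for I/R against sham by limma). The call was kept without any one mouse and in both reduced sets of nuclei, where the log2 fold changes were 1.91 and 1.79, and was lost only when none of the 6 genes of other lineages was allowed (log2 fold change 1.98, adjusted p = 0.07812). In sham, I/R and SBP, Kif26b averaged 30.5, 161 and 133 CPM in endocardial nuclei, 4.53, 206 and 88.4 CPM in fibroblasts and 10.4, 85 and 34.8 CPM in other endothelial nuclei, without the scaling. So in the I/R hearts alone the fibroblast mean was above the endocardial one.

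Adam12, a metalloprotease of tissue repair (chr7:133883199-134232146, minus strand), went from near 0 to a clear level, with 3.77, 4.34 and 3.34 CPM in the sham samples, 162, 133 and 130.4 CPM in the I/R samples and 49.9, 176 and 187 CPM in the SBP samples. The sham samples held few molecules, and only SBP replicate 1 lay below all 3 I/R samples (log2 fold change 4.89, SE 0.41, adjusted p = 0.0004496 by limma). Leaving out the fibroblast, leukocyte and muscle clusters lowered the log2 fold change to 3.17 (adjusted p = 0.005253 by limma). Means in sham, I/R and SBP were 3.87, 143 and 137 CPM in endocardial nuclei, 11.8, 146 and 144 CPM in other endothelial nuclei and 20.9, 432 and 375 CPM in fibroblasts. Timp1, the metalloprotease inhibitor, was at 3.77, 2.6 and 5.01 CPM in the sham samples, 53.5, 55.5 and 28.6 CPM in the I/R samples and 32.1, 28.1 and 35.2 CPM in the SBP samples. It was above all sham samples in each of the 6 hearts with ischemia and reperfusion (log2 fold change 3.26, SE 0.33, adjusted p = 0.0004496 by limma). Timp1, like Csf3r, Col25a1 and Trim65 below, was singled out after its values were seen. Without clusters 5, 7 and 8 its log2 fold change was 2.82, and its call held without any one mouse. The call was lost in 3 of 23 alternatives, 1 of them with none of the 6 genes of other lineages allowed (log2 fold change 3.61, adjusted p = 0.1279 by limma). Over all hearts and among the classes compared, Timp1 was highest in fibroblasts.

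Thbs1 encodes thrombospondin 1, a matricellular protein that platelets also release. It was at 6.29, 1.74 and 5.01 CPM in the sham samples, 36.2, 43.5 and 27.6 CPM in the I/R samples and 37.6, 28.1 and 10.8 CPM in the SBP samples (log2 fold change 2.87, SE 0.47, adjusted p = 0.01729, lost without sham replicate 3 or I/R replicate 2). Every I/R sample was above every sham sample. Vwf, at 1369.8, 938 and 846 CPM in the sham samples, 906, 2137 and 1885 CPM in the I/R samples and 1329, 1328 and 1048 CPM in the SBP samples, and the anticoagulant receptor gene Thbd, at 26.4, 22.6 and 45.1 CPM in sham, 43.4, 27.7 and 22.3 CPM in I/R and 43.1, 26.9 and 55.7 CPM in SBP, did not pass (log2 fold change 0.58, adjusted p = 0.4404 and -0.00, adjusted p = 0.9993 by limma).

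Of 15 tested genes of mesenchymal transition, 3 rose (Col1a1, Col1a2 and S100a4) and none fell, against 0.584 and 0.282% of all genes tested, and the median log2 fold change was 0.64, against -0.03 over all genes. The transition genes Snai1, Snai2, Twist1 and Tagln were under the filter and not tested. The members that rose encode fibrillar collagen chains and a calcium-binding protein that is also made by leukocytes. Over all hearts and among the classes compared, Col1a1 and Col1a2 were highest in fibroblasts and S100a4 in myeloid nuclei, so no transition was read from them. Col1a1 was at 20.1, 18.2 and 21.7 CPM in the sham samples, 342, 142 and 161 CPM in the I/R samples and 70.5, 182 and 115 CPM in the SBP samples (log2 fold change 3.25, SE 0.37, adjusted p = 0.002537 by limma). All 6 I/R and SBP samples lay above the sham samples. Without clusters 5, 7 and 8 the log2 fold change of Col1a1 was 2.84 (adjusted p = 0.03592), and Col1a2 lost its call (adjusted p = 0.1255). Leaving out one mouse never cost Col1a1 its call, but did so for Col1a2 except where that mouse was SBP replicate 1 or 2, and for S100a4 where it was sham replicate 2 or 3 or I/R replicate 2.

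In the basement membrane and matrix list 2 of 22 tested genes rose, Sparc and Tnc, and none fell, against 0.584 and 0.282% of all genes (median 0.08). Sparc, a collagen-binding matricellular protein (chr11:55394500-55423183, minus strand), was at 102, 103 and 122 CPM in the sham samples, 219.9, 183 and 214 CPM in the I/R samples and 137, 173 and 159 CPM in the SBP samples. Its 3 I/R values were all above its SBP values, and those were all above its sham values (log2 fold change 0.91, SE 0.16, adjusted p = 0.01891 by limma). Without sham replicate 2 the adjusted p rose above 0.05, and so it did without clusters 4, 5, 7 and 8 (log2 fold change 0.70, adjusted p = 0.06856). With 1 mouse left out the log2 fold change of Sparc stayed between 0.87 and 1.04. The collagen IV genes of ordinary basement membrane, Col4a1 and Col4a2, had no overlap between I/R and sham but did not pass, with log2 fold changes of 1.02, adjusted p = 0.115 and 0.76, adjusted p = 0.3162 by limma. Col4a3, one of the chains that set the endocardium apart, was at 818, 511 and 817 CPM in the sham samples, 823, 163 and 352 CPM in the I/R samples and 204, 493 and 276 CPM in the SBP samples (-0.95, adjusted p = 0.5394). Its lowest value, in I/R replicate 2, fell in the library with most of cluster 3. Tnc, or tenascin C, was at 8.8, 0.868 and 0 CPM in the sham samples, 69.5, 90.6 and 299 CPM in the I/R samples and 43.8, 184 and 106 CPM in the SBP samples (log2 fold change 5.56, SE 0.94, adjusted p = 0.04395 by limma). It was highest in I/R replicate 3, and the call did not survive leaving out any one mouse except sham replicate 1. Without clusters 5, 7 and 8 the log2 fold change of Tnc was 3.80 (adjusted p = 0.04287).

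Of 12 tested injury macrophage transcripts 6 rose (Spp1, Arg1, Gpnmb, Lgals3, Ftl1 and Thbs1), against 0.584% of all genes, none fell, and the list median was 3.26. Spp1, the gene of osteopontin, was at 1.26, 0.868 and 1.67 CPM in the sham samples, 479, 53.6 and 68.9 CPM in the I/R samples and 28.1, 149 and 38.1 CPM in the SBP samples. I/R replicate 1 was highest, and the 3 sham libraries together held 3 UMIs against 454 in I/R, a ratio of pooled rates of 141 (exact 95% counting interval 47.8 to 684) that came to 51 without I/R replicate 1. In plain CPM, Spp1 averaged 0.391, 413 and 259.8 CPM in myeloid nuclei and 0, 305 and 119.7 CPM in other endothelial nuclei of sham, I/R and SBP hearts. In I/R replicate 1 a Spp1 UMI was found in 65.32% of endocardial, 65.66% of other endothelial, 59.02% of fibroblast and 71.24% of myeloid nuclei, and in I/R replicates 2 and 3 in 8.467 and 15.17% of endocardial, 5.483 and 15.42% of other endothelial, 7.161 and 15.65% of fibroblast and 10.6 and 26.4% of myeloid nuclei, at median depths of 1252 to 2258 UMIs. The share in endocardial nuclei was thus close to that in other endothelial nuclei and fibroblasts of the same heart, and no expression by endocardial nuclei was read from it. Limma gave an adjusted p of 0.03095 for Spp1, which was lost without any one of the sham mice. Hmox1, heme oxygenase 1, held 124 UMIs in I/R and 3 in sham, 38.4 times the rate (12.8 to 189), and was at 7.52, 9.77 and 15.6 CPM in SBP. Csf3r, the receptor for granulocyte colony-stimulating factor, was at 2.52, 1.74 and 3.34 CPM in the sham samples, 43.4, 40.7 and 40.3 CPM in the I/R samples and 59.5, 33 and 20.5 CPM in the SBP samples (log2 fold change 3.61, SE 0.37, adjusted p = 0.0004496 by limma). Its I/R values were close to each other, and the call held without any one mouse. With none of the 6 genes of other lineages allowed, the call of Csf3r was lost (log2 fold change 4.02, adjusted p = 0.05157 by limma). Over all hearts and among the classes compared, Csf3r was highest in myeloid nuclei. Lgals3 (galectin 3), Arg1, Il1r2, Cd300lf, Slfn4 and Col12a1 completed the top of the rising list, with log2 fold changes from 3.94 for Slfn4 to 4.61 for Lgals3. Hmox1 and Cd300lf kept their calls without any one mouse, Clec4d and Arg1 lost theirs only without I/R replicate 2, and Lgals3 without sham replicate 1 or 3. Il1r2 lost its call without any of 4 single mice (sham replicates 2 and 3, I/R replicates 2 and 3), and so did Slfn4 (sham replicates 2 and 3, I/R replicate 2, SBP replicate 1). Col12a1, Gpnmb and Ftl1 lost theirs without any one sham mouse, without I/R replicate 2 and without SBP replicate 3, among others. Gpnmb lost its call in both reduced sets as well (log2 fold changes 4.16 and 4.26, adjusted p = 0.05671 and 0.07188). In all, 14 of the 58 rising genes had 3 or fewer UMIs in the sham libraries, 2 of them, Gpnmb and Clec4d, with none. Taken against 3 UMIs for the whole sham group as the lowest measurable count, Gpnmb was at least 25.1-fold higher (9.13-fold without I/R replicate 1) and Clec4d at least 16.4-fold higher.

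**Figure D4:**
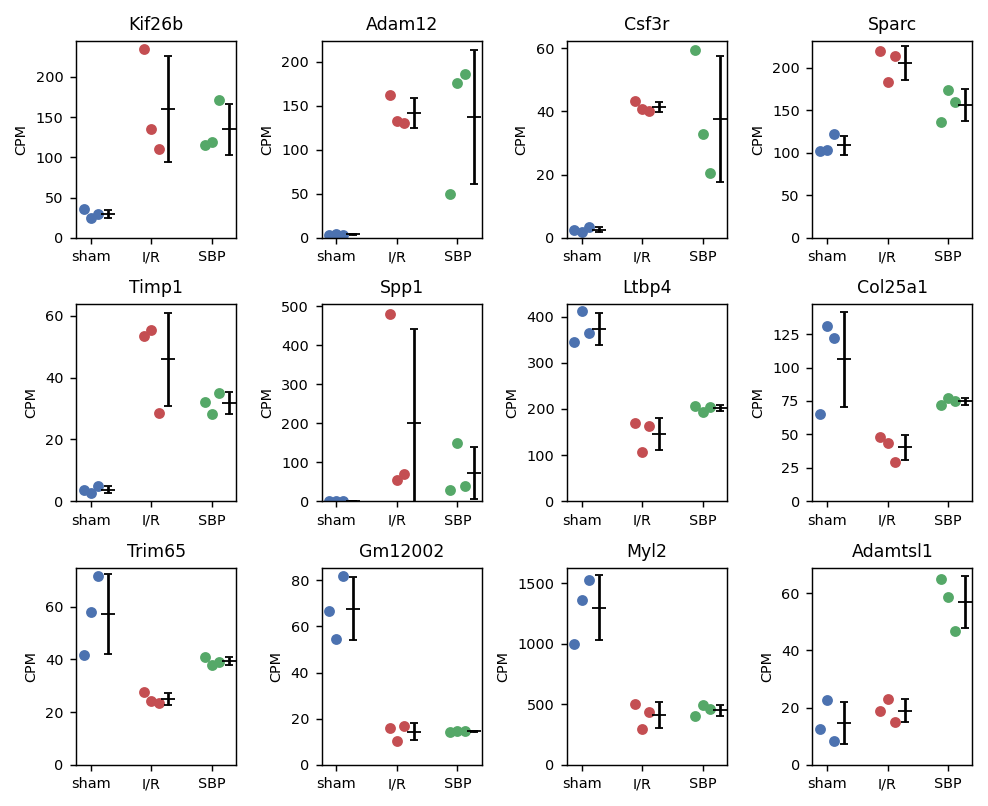
CPM per mouse (linear axis from 0) of 12 genes in endocardial nuclei, one point per mouse, with the mean and SD of each group beside the points. Kif26b, Adam12, Timp1 and Csf3r are higher in all 6 I/R and SBP samples than in the 3 sham samples, Ltbp4 and Myl2 are lower, and Adamtsl1 is highest in the 3 SBP samples.

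Among the falling genes, Ltbp4 kept its call under all 23 alternatives. It encodes a protein that holds latent TGF beta in the matrix and helps to assemble elastic fibers (chr7:27305136-27337692, minus strand). The level was 345, 412 and 364 CPM in the sham samples, 169, 106 and 163 CPM in the I/R samples and 206, 194 and 205 CPM in the SBP samples. The 3 groups did not overlap, with sham highest, SBP between and I/R lowest (log2 fold change -1.37, SE 0.18, adjusted p = 0.002537 for I/R against sham by limma). In SBP against I/R the difference of 0.49 did not pass (adjusted p = 0.9993 by limma). Over all hearts and among the classes compared, Ltbp4 was highest in fibroblasts. In the BMP and TGF beta list, which does not hold Ltbp4, 0 of 20 tested genes passed, with a median of -0.07. Bmp6, the member most abundant in the endocardium, was at 2175, 1269 and 1817 CPM in the sham samples, 1576, 1025 and 1326 CPM in the I/R samples and 1349, 2206 and 1486 CPM in the SBP samples (log2 fold change -0.41, adjusted p = 0.497 by limma), and the co-receptor gene Eng gave 0.12, adjusted p = 0.8412.

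Col25a1 and Trim65 were the 2 falling genes with their highest level in endocardial nuclei among the classes compared. Col25a1, a transmembrane collagen gene, was at 65.4, 131 and 122 CPM in the sham samples, 47.8, 43.5 and 29.7 CPM in the I/R samples and 71.8, 76.9 and 75.2 CPM in the SBP samples. All I/R samples were under all sham samples, and the SBP values lay above the I/R values (log2 fold change -1.34, SE 0.26, adjusted p = 0.03333 by limma). In other endothelial nuclei its means were 19.3, 7.23 and 9.43 CPM in sham, I/R and SBP, against 108, 40.5 and 73.4 CPM in endocardial nuclei. Trim65, a ubiquitin ligase gene, was at 41.5, 58.2 and 71.9 CPM in the sham samples, 27.5, 24 and 23.3 CPM in the I/R samples and 41, 37.9 and 39.1 CPM in the SBP samples (log2 fold change -1.13, SE 0.24, adjusted p = 0.04185 by limma). Both calls held without sham replicate 1 or I/R replicate 1 and were lost without any one of the other 7 mice. Gm12002, a long noncoding RNA transcribed against Cobl (chr11:12314514-12351028, plus strand) that also led the capillary cluster, was at 66.7, 54.7 and 81.9 CPM in the sham samples, 15.9, 10.2 and 17 CPM in the I/R samples and 14.4, 14.7 and 14.7 CPM in the SBP samples (log2 fold change -2.17, SE 0.27, adjusted p = 0.002089). It was not above the filter once cluster 4 was left out. Angptl2, a secreted angiopoietin-like protein, was at 18.9, 39.9 and 30.1 CPM in the sham samples, 5.79, 8.32 and 5.3 CPM in the I/R samples and 16.4, 20.8 and 20.5 CPM in the SBP samples (log2 fold change -1.996, SE 0.34, adjusted p = 0.01891 by limma, lost without sham replicate 2 or 3). Sybu, Smtnl2, Slc28a2 and Gm30382 fell as well, with log2 fold changes from -2.46 for Sybu to -1.37 for Slc28a2, and each lost its call without sham replicate 2, sham replicate 3 or I/R replicate 2, among others. For Gm12002 the counting of strand is not stated, and reads of Cobl may be included in it.

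Heart muscle transcripts among the falling genes were Myl2, Mybpc3, Tnnc1, Tnni3, Csrp3, Ckmt2, Pgam2 and Hrc. Myl2, the ventricular myosin light chain, was at 1001, 1362 and 1528 CPM in the sham samples, 499, 297 and 439 CPM in the I/R samples and 400.2, 491 and 461 CPM in the SBP samples (log2 fold change -1.67, SE 0.21, adjusted p = 0.002089 by limma, called in all 23 alternatives). In plain CPM the means of Myl2 in sham, I/R and SBP were 1682, 832 and 1027 CPM in cardiomyocytes, 1981, 569 and 677 CPM in other endothelial nuclei, 916, 249.5 and 281 CPM in fibroblasts and 1258, 321 and 335 CPM in myeloid nuclei. Every class of nuclei held Myl2 at a high level, and in each the sham mean was the highest. Hrc, a calcium-binding protein of the sarcoplasmic reticulum, was at 49.1, 88.5 and 98.6 CPM in the sham samples, 17.4, 17.6 and 33.9 CPM in the I/R samples and 17.8, 20.8 and 26.4 CPM in the SBP samples (log2 fold change -1.74, SE 0.32, adjusted p = 0.02668 by limma, lost without sham replicate 2, sham replicate 3 or I/R replicate 2, as were those of Pgam2 and Mybpc3). Free RNA in the droplets was not measured here, and its part in these values was not tested.

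Of the signaling genes for which the endocardium is known, no gene passed among 12 tested Notch genes (median -0.24), 7 of the neuregulin and EGF family (median -0.17), 16 of the VEGF, angiopoietin and apelin list (median -0.18), 27 transcription factors (median -0.19) or 10 genes of natriuretic peptide signaling (median 0.02). With 0.584% of all genes called higher and 0.282% lower, counts of 0 in lists of this size are near the background. Notch1 was at 286, 248 and 231 CPM in the sham samples, 209.8, 259.8 and 172 CPM in the I/R samples and 322, 184 and 243 CPM in the SBP samples (-0.27, adjusted p = 0.6194 by limma). Among receptors, Erbb4 was at 156, 253 and 150.4 CPM in the sham samples, 81, 124 and 118 CPM in the I/R samples and 142, 95.3 and 82.1 CPM in the SBP samples, with every I/R sample under every sham sample but no call (-0.77, adjusted p = 0.1947 by limma). Tie1 behaved alike (-0.64, adjusted p = 0.1539), and the VEGF receptor gene Kdr, at 61.6, 97.2 and 93.6 CPM in sham, 42, 53.6 and 63.6 CPM in I/R and 74.6, 74.5 and 69.4 CPM in SBP, overlapped (-0.65, adjusted p = 0.2119). Of the factors, Gata4 gave -0.22, adjusted p = 0.5772, Nfatc1 -0.40, adjusted p = 0.3989 and Sox7 -0.97, adjusted p = 0.1195 by limma. Prkg1, the kinase that answers cyclic GMP, was at 5187, 4125 and 4829 CPM in the sham samples, 5797, 6709.5 and 10874 CPM in the I/R samples and 6456, 9225 and 6878 CPM in the SBP samples, without overlap and without a call (0.68, adjusted p = 0.2025). In the list of neuronal-type adhesion and guidance genes, to which Lsamp, Epha7 and Nrxn3 belong, 0 of 20 passed and the median was -0.29.

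Leukocyte adhesion and chemokine genes showed the library that stood apart. None of 12 tested genes passed, with a median of 0.93. Selp, or P-selectin, was at 5.03, 15.6 and 11.7 CPM in the sham samples, 14.5, 251 and 19.1 CPM in the I/R samples and 28.1, 7.33 and 25.4 CPM in the SBP samples (log2 fold change 1.98, adjusted p = 0.4715 by limma). I/R replicate 2 was far above every other sample. Icam1, at 187, 71.2 and 83.6 CPM in the sham samples, 65.1, 397 and 165 CPM in the I/R samples and 81.4, 70.8 and 79.2 CPM in the SBP samples (0.64, adjusted p = 0.7035), and Ccl2, at 8.8, 0.868 and 3.34 CPM in the sham samples, 14.5, 104 and 19.1 CPM in the I/R samples and 23.9, 23.2 and 47.9 CPM in the SBP samples (2.89, adjusted p = 0.1393 by limma), were also highest in that library. Vcam1 had its highest values in sham, at 743, 264 and 777 CPM in the sham samples, 327, 436 and 479 CPM in the I/R samples and 268, 311 and 267 CPM in the SBP samples (-0.39, adjusted p = 0.6977).

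Glucocorticoid response genes varied between mice of one group. Of 16 tested, 1, Angptl4, an inhibitor of lipoprotein lipase, rose, against 0.584% of all genes (median 1.08). Angptl4 was at 0, 5.21 and 0 CPM in the sham samples, 10.1, 26.8 and 21.2 CPM in the I/R samples and 29.4, 28.1 and 12.7 CPM in the SBP samples (log2 fold change 3.37, SE 0.69, adjusted p = 0.04054 by limma). In both reduced sets its call was lost (log2 fold changes 3.10 and 2.82, adjusted p = 0.09084 and 0.2065), and of single mice left out only sham replicate 2 and I/R replicate 1 kept it. Fkbp5, a co-chaperone of the glucocorticoid receptor, was at 903, 70.3 and 376 CPM in the sham samples, 284, 937 and 1141 CPM in the I/R samples and 428, 253 and 219.9 CPM in the SBP samples (1.22, adjusted p = 0.6386 by limma). Sham replicate 2 was the lowest of all 9 for Fkbp5 and for Zbtb16, at 2479, 188 and 1518 CPM in sham, 734, 1124 and 1180.2 CPM in I/R and 534, 372 and 255 CPM in SBP. For immediate early and flow-responsive factors 1 of 13 rose, against the same 0.584% of all genes, namely Fosl2, at 22.6, 11.3 and 13.4 CPM in the sham samples, 37.6, 42.5 and 44.5 CPM in the I/R samples and 31.5, 30.5 and 33.2 CPM in the SBP samples (log2 fold change 1.40, SE 0.27, adjusted p = 0.03095 by limma, lost without sham replicate 2 or 3 or I/R replicate 2 or 3), and the median was 0.15. None of 15 hypoxia and glycolysis genes passed (median 0.25). Of 19 replication and mitosis genes only 6 were above the filter, and none passed (median 1.31, against -0.03 over all genes). A gene near 0 in sham can meet the filter through the other groups alone, so no direction was read from this median. Top2a was at 3.77, 6.08 and 0 CPM in the sham samples, 13, 29.6 and 15.9 CPM in the I/R samples and 8.21, 28.1 and 31.3 CPM in the SBP samples (2.58, adjusted p = 0.1273 by limma).

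None of 15 tested interferon-stimulated genes passed in I/R against sham or in SBP against sham. In I/R all 15 had a log2 fold change under 0, where 46% of all genes were above 0, and 3 had no overlap with sham (17.5% of all genes), with a median of -0.57 against -0.03 over all genes. In SBP against sham 1 of the 15 was above 0 (50.9% of all genes), the median was -0.75, and 8 had no overlap (18.3% of all genes). Gbp2, a guanylate-binding protein of the list, was at 59.1, 26.1 and 30.1 CPM in sham, 14.5, 23.1 and 6.36 CPM in I/R and 4.1, 11 and 26.4 CPM in SBP, and SBP replicate 3 lay within the sham range. Ifi203, an interferon-inducible gene outside the list, was at 60.4, 60.8 and 98.6 CPM in the sham samples, 47.8, 34.2 and 24.4 CPM in the I/R samples and 21.9, 17.1 and 21.5 CPM in the SBP samples (-1.04, adjusted p = 0.116 for I/R against sham by limma). It fell in SBP against sham (log2 fold change -1.78, SE 0.28, adjusted p = 0.02183 by limma). The call for Ifi203 was lost without clusters 4, 5, 7 and 8 (log2 fold change -1.60, adjusted p = 0.2677) and without sham replicate 3, SBP replicate 2 or SBP replicate 3.

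The circadian clock runs on a loop in which the activators Arntl and Clock drive Per, Cry and Nr1d genes, whose products shut the activators down, while Rora drives Arntl and Dbp carries the rhythm to outputs. Of 19 clock genes 16 were tested, 1 rose (Arntl) and 2 fell (Dbp and Rora) in I/R, against 0.584% of all genes that rose and 0.282% that fell, and the median was -0.89. The time of day of each dissection is not given in the sources used here, so it cannot be told apart from the group. Promoter windows of 300 bases around RefSeq start sites (GRCm38.p6) were read for the 16 of these genes that matched. They were searched on both strands for the E-box CACGTG, to which Arntl and Clock bind, for the Rora element (AANTN directly followed by GGTCA) and for the D-box TTATGNAA of Dbp. Of all 32851 windows, 7.15% held the E-box, 0.606% the Rora element and 3.38% the D-box, and of all 27025 genes, some with several windows, 8.09, 0.714 and 3.99% held them in at least 1 window. Among the 16 clock genes, 5 held an E-box (Bhlhe41, Ciart, Cry1, Per1 and Tef), 1 the Rora element (Arntl) and 2 a D-box (Per1 and Per3). Per1 also holds a D-box, and its window is not shown. The windows of Arntl, on chr7:113207261-113207560 (plus strand), and Per3, on chr4:151044616-151044915 (minus strand), are shown as examples. They hold the elements of the called genes Rora and Dbp, in capitals.
Arntl: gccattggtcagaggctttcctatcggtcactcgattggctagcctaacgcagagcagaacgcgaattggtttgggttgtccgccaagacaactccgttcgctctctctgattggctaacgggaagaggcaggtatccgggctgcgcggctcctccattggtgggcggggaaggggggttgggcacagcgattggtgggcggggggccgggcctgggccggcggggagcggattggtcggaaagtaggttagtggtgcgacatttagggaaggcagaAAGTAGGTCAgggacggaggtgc
Per3: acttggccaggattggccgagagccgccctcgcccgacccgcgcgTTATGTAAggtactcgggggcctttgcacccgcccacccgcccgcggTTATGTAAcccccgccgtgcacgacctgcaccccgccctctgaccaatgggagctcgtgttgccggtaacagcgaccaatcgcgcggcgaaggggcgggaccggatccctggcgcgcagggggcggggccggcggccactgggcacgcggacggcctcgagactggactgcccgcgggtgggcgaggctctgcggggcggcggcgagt
The Arntl element lies in the window of the downstream RefSeq start only. A match is a description of the letters and was not measured as binding.

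Arntl (chr7:113207465-113314126, plus strand) was at 16.4, 10.4 and 6.69 CPM in the sham samples, 178, 128 and 47.7 CPM in the I/R samples and 36.9, 18.3 and 44 CPM in the SBP samples. Every I/R sample exceeded every sham and SBP sample (log2 fold change 3.18, SE 0.50, adjusted p = 0.01928 by limma). The call was lost without sham replicate 2, sham replicate 3 or I/R replicate 2, and without clusters 5, 7 and 8 (log2 fold change 3.37, adjusted p = 0.06042). Rora, whose element stands in capitals in the Arntl window, was at 1982, 2449 and 2252 CPM in the sham samples, 1391, 1157 and 1175 CPM in the I/R samples and 1944, 1700.0 and 1811 CPM in the SBP samples (log2 fold change -0.84, SE 0.15, adjusted p = 0.01965 by limma). It was lowest in I/R, with no overlap among the 3 groups, and its call was lost without sham replicate 2 or 3, I/R replicate 2 or 3 or SBP replicate 3. Dbp (chr7:45705088-45710203, plus strand) was at 54.1, 111 and 76.9 CPM in the sham samples, 4.34, 3.7 and 17 CPM in the I/R samples and 29.4, 62.3 and 47.9 CPM in the SBP samples (log2 fold change -3.35, SE 0.49, adjusted p = 0.01729 by limma). The groups fell in the order sham, SBP and I/R with some overlap of sham and SBP, and the call was lost without sham replicate 3 or I/R replicate 2. The gene overlaps Sphk2 on the opposite strand.

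Per3, with its D-box pair shown above, was at 127, 163 and 102 CPM in the sham samples, 15.9, 25.9 and 75.3 CPM in the I/R samples and 96.5, 119.7 and 103 CPM in the SBP samples, a log2 fold change of -1.99, adjusted p = 0.09777 by limma. It did not pass, and neither did Per2 (-1.38, adjusted p = 0.1422), Nr1d1 (-2.29, adjusted p = 0.482), Nr1d2 (-1.83, adjusted p = 0.2375), Bhlhe40 (-1.44, adjusted p = 0.05062), Clock (0.79, adjusted p = 0.0595) or Npas2 (2.09, adjusted p = 0.3292). Both called genes Dbp and Arntl were also read in other nuclei of these hearts, without a test. Means of Dbp in sham, I/R and SBP were 82, 8.39 and 46.1 CPM in endocardial nuclei, 94.1, 6.87 and 35.5 CPM in other endothelial nuclei, 113, 8.01 and 48.3 CPM in fibroblasts and 84.3, 6.78 and 16.2 CPM in cardiomyocytes, in plain CPM. Arntl averaged 11.2, 119 and 32.4 CPM in endocardial nuclei and 9.72, 164 and 42.5 CPM in fibroblasts. Over all hearts and among the classes compared, Arntl was highest in myeloid nuclei.

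**Figure D5:**
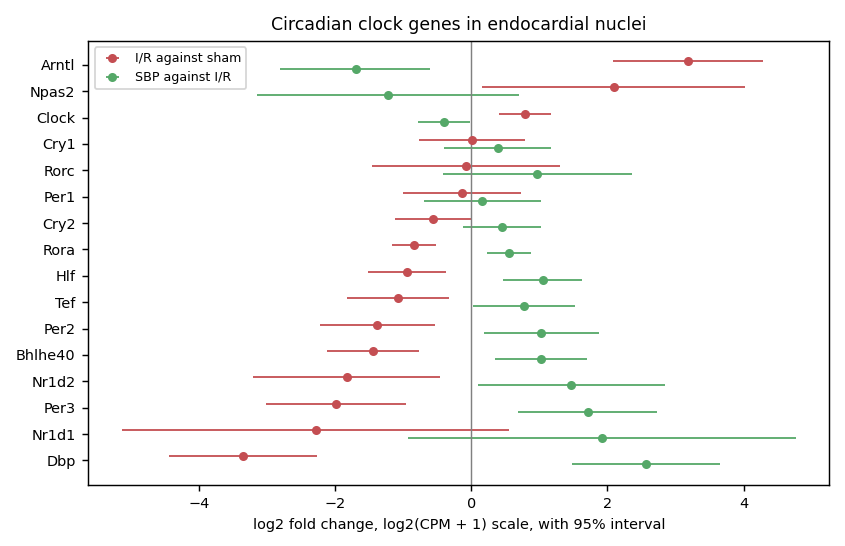
Log2 fold change of the 16 tested clock genes in endocardial nuclei, with the 95% confidence interval, for I/R against sham (red) and SBP against I/R (green), which share the I/R samples. Arntl is farthest to the right and Dbp farthest to the left in I/R against sham, and none of the green values was called.

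Comparing SBP with I/R asked what the drug changed in the injured endocardium. No gene passed in limma's test (0% of 9924), and the smallest adjusted p was 0.8423. An unadjusted p under 0.05 was reached by 403 genes, and 889 genes (8.96%) had no overlap between the 3 SBP and the 3 I/R samples. The I/R samples entered this and the previous comparison, so values of the same gene in both are given only side by side. The gene with the lowest p was H19, an imprinted noncoding RNA, at 184, 194 and 154 CPM in the sham samples, 120.1, 145 and 127 CPM in the I/R samples and 388, 202 and 386 CPM in the SBP samples. All SBP values exceeded all I/R values, and SBP replicates 1 and 3 were the highest of all (log2 fold change 1.25, SE 0.23, adjusted p = 0.8423 by limma). It passed when SBP replicate 2 was left out and in no other alternative. Dbp had a log2 fold change of 2.57, adjusted p = 0.9283 and passed only without I/R replicate 3, where Per3 passed too. Adamtsl1, a secreted protein of the ADAMTS-like family, gave 1.55, adjusted p = 0.9283, and Ltbp4 0.49, adjusted p = 0.9993. The other genes among the 10 with the lowest p and no overlap were Angptl2 (1.45), Lmcd1 (1.14) and Hhat (1.12) on the higher side and Myh11 (-2.75), Lpin3 (-1.56), Marchf1 (-1.36) and Rpl24 (-0.67) on the lower side, none of them called.

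The running text of the study named 24 genes for SBP in total endothelial cells and their subgroups. In endocardial nuclei alone 22 of them were above the filter, 0 passed in SBP against I/R, and the median was -0.00. A supplementary list of the study also holds Npr3, Tmem108, H19 and Bmp6 as raised by SBP in endothelial cells. These genes were chosen by the study on the same samples, so they are no independent evidence of a direction. Vegfc, a lymphatic and angiogenic growth factor, was at 74.2, 162 and 125 CPM in the sham samples, 99.8, 99.8 and 111 CPM in the I/R samples and 118, 153 and 194 CPM in the SBP samples. Its SBP values lay above its I/R values but within the sham range in SBP replicates 1 and 2 (log2 fold change 0.55, SE 0.26, adjusted p = 0.9993 by limma). Icam1, Fkbp5 and Cp gave -1.07, adjusted p = 0.9993, -1.22, adjusted p = 0.9993 and -0.92, adjusted p = 0.9993, Spp1 gave -1.14, adjusted p = 0.9993 and Kif26b -0.19, adjusted p = 0.9993 by limma. Myh7, a cardiac myosin chain, was at 74.2, 9.55 and 46.8 CPM in the sham samples, 5.79, 116 and 18 CPM in the I/R samples and 175, 229.6 and 244 CPM in the SBP samples (3.12, adjusted p = 0.9993). It was high in all 3 SBP samples and in I/R replicate 2. The median of the VEGF, angiopoietin and apelin list was 0.32, with 0 of 16 called, that of the clock list 0.87, with 0 of 16, and that of the glucocorticoid list -0.60, with 0 of 16, against 0.03 over all genes.

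SBP against sham asked which differences from the uninjured heart were present in treated hearts. In limma's test 13 genes rose (0.131%) and 15 fell (0.151%) of 9924, and 1812 genes had no overlap. The share of called genes that were higher was 46.4%, against 24.2% of 33 after thinning, 7.69% of 39 with mean ln values, 28.1% of 57 without clusters 5, 7 and 8 and 31.5% of 54 without cluster 4 as well. With 1 mouse left out it ran from 37.5% of 32 (without sham replicate 1) to 90% of 10 (without sham replicate 3). Adam12, Cd300lf, Il1r2, Angptl4, Csf3r, Timp1, Col1a1, Ccl6, Kif26b, Fmn1 and Adamtsl1 were among the rising genes. For Kif26b the difference was log2 fold change 2.11, SE 0.26, adjusted p = 0.003819 by limma. Adam12 and Timp1 gave 4.63 and 2.80 (adjusted p = 0.001134 and 0.002293). Both comparisons share the sham samples. The falling genes again held muscle genes, Myl2 at -1.51, Tnni3 at -1.47 and Hrc at -1.77 (log2 fold change), beside Gm12002 and Ifi203. Pgam2, Gm30382, Cox7a1, Ablim3, Myocd, Tnnc1 and Ndufb10 fell too, from -1.76 (Pgam2) to -1.27 (Ndufb10). Each of these lost its call without sham replicate 3 or SBP replicate 2, among others. Among the classes compared, 8 of the 15 falling genes were highest in other endothelial nuclei, 6 in cardiomyocytes and 1 in myeloid nuclei. The summed cardiomyocyte markers were also lower in every SBP sample than in every sham sample, in the ranges given above, and their part was not tested. The calls of Adam12, Csf3r, Timp1, Kif26b and Gm12002 held without any one mouse, those of Myl2 and Tnni3 were lost without sham replicate 3, and that of Cd300lf without SBP replicate 1 or 2. With none of the 6 genes of other lineages allowed, Adam12 kept its call, and Csf3r, Timp1, Kif26b and Gm12002 lost theirs. Hrc lost its call without sham replicate 2 or 3 or any one SBP mouse, Fmn1 without sham replicate 1 or 3 or any one SBP mouse, and Ccl6 without sham replicate 3 or SBP replicate 1 or 2. Col1a1 lost it without any one sham mouse or SBP replicate 2 or 3, and Angptl4 and Il1r2 without I/R replicate 3, any one SBP mouse or either of 2 sham mice. In both reduced sets the calls of Col1a1 (log2 fold changes 1.79 and 1.98, adjusted p = 0.1796 and 0.08507) and Angptl4 (2.78 and 2.61, adjusted p = 0.141 and 0.3004) were lost.

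Adamtsl1 (chr4:85514172-86428385, plus strand) was called higher against sham and was not called in I/R. It was at 12.6, 22.6 and 8.36 CPM in the sham samples, 18.8, 23.1 and 14.8 CPM in the I/R samples and 65, 58.6 and 46.9 CPM in the SBP samples. The 3 SBP samples lay above all 6 others (log2 fold change 1.99, SE 0.33, adjusted p = 0.02269 by limma). The call was lost in both reduced sets, with adjusted p = 0.2059 and 0.3817, and without sham replicate 1 or 3 or any one of the SBP mice. Means in sham, I/R and SBP were 14.7, 19 and 55.7 CPM in endocardial nuclei and 54.4, 47.7 and 42.6 CPM in other endothelial nuclei, in plain CPM. Without clusters 5, 7 and 8 the count of called genes in SBP against sham was 57, and with none of the 6 genes of other lineages it was 7.

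Whether the endocardium changed differently from other nuclei of the same mice was tested on the difference itself. Against the other endothelial nuclei, no gene of 9789 passed in I/R against sham (0%, smallest adjusted p 0.09033 by limma, 707 genes with an unadjusted p under 0.05) and none in SBP against I/R (0%, 407 genes). In I/R against sham, Ikbke and Tll1 passed with a filter of 20 UMIs, with at least 4 of the 8 genes or without I/R replicate 1, Tll1 with a pseudocount of 5, and Ikbke, Prg4, Timp1 and Tll1 without clusters 4, 5, 7 and 8. Kif26b, for example, differed by -0.19, SE 0.65, adjusted p = 0.9713 by limma. Against the nuclei outside the endothelium, the change from sham to I/R was higher in endocardial nuclei for 1 gene of 9909 (0.0101%) and lower for 5 (0.0505%) in limma's test, and 0 genes (0%) passed in SBP against I/R, where 495 had an unadjusted p under 0.05. Of these 6, Adam23, a disintegrin-type adhesion protein, had a log2 fold change of 3.13 in endocardial nuclei and -0.04 outside the endothelium. Ikbke, an inflammatory kinase gene, had -0.13 in endocardial nuclei against 2.20 outside, and Stab1, a scavenger receptor gene, -0.34 against 1.34. The membrane metalloprotease gene Mmp14 had 0.62 against 2.29, Ralgds -0.82 against 0.81, and Socs3, a feedback inhibitor of cytokine signaling, 0.94 against 2.55. The nuclei outside the endothelium are a mixture of cell types and include nuclei with only 1 of the 5 pan-endothelial genes. A difference in their makeup between groups cannot be told apart from a change within them.

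The gene that moved higher was Adam23, an adhesion protein of the ADAM family, with a log2 fold change of 3.13 in endocardial nuclei and -0.04 outside the endothelium (difference 3.17, SE 0.41, adjusted p = 0.03374 by limma). Its endocardial level was low, at 1.26, 2.6 and 0 CPM in the sham samples, 13, 29.6 and 11.7 CPM in the I/R samples and 10.3, 12.2 and 2.93 CPM in the SBP samples. The rise of Adam23 from sham to I/R was not called within endocardial nuclei alone. The 5 that moved lower were Ikbke, an interferon and NF-kappaB kinase (difference -2.33, SE 0.25, adjusted p = 0.01368), Stab1, a scavenger receptor of endothelium and macrophages (-1.68, SE 0.18, adjusted p = 0.01368), Mmp14, a membrane metalloprotease (-1.66, SE 0.23, adjusted p = 0.04035), Ralgds, a Ral activator (-1.63, SE 0.22, adjusted p = 0.04035), and Socs3, a brake on cytokine signaling (-1.61, SE 0.20, adjusted p = 0.03374), all by limma. Socs3 had log2 fold changes of 0.94 in endocardial nuclei and 2.55 outside the endothelium. Stab1 averaged 306, 248 and 227 CPM in endocardial and 972, 1112 and 1112 CPM in myeloid nuclei of sham, I/R and SBP. The count of 6 fell to 0 without sham replicate 1, sham replicate 3 or I/R replicate 3 and was 2 without I/R replicate 1, I/R replicate 2 or SBP replicate 1.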

How the data were processed

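Nuclei of frozen tissue from below the ligation site of 9 mouse hearts were sequenced with droplet 3' chemistry. The authors trimmed reads with fastp, aligned them with Cell Ranger to mm10 (GRCm38), evened out depth between samples by down-sampling, kept nuclei with over 200 genes and under 10% mitochondrial UMIs, and removed mitochondrial genes. Per the submitters' processing notes, Cell Ranger 4.0 and Seurat 3.2.0 were used (the study's methods name later versions). The deposited values are natural log (ln) values, which the authors made in Seurat as ln(1 + 10000 times the UMIs of a gene over all UMIs of the nucleus). None of the authors' own comparisons was used here.

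Whole UMIs were recovered from the ln values, and at least 99.999% came out whole within 0.1 UMI. The 49171 barcodes are fewer than the cells stated by the study. Libraries held 4576 to 6418 nuclei and 10329520 to 18205985 UMIs, with a median of 1540 to 2031 per nucleus, and 586167 to 1553501 UMIs lay in endocardial nuclei. The study's supplement also gives the total reads and bases of each library before and after filtering, and these were not used here. Counting intervals cover counting error only.

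UMIs were summed per mouse over the endocardial nuclei and scaled by TMM. Genes needed the CPM of 10 UMIs in the median library in at least 3 samples and 15 UMIs in all, and the 23 genes of the rule were left out. log2(CPM + 1) of all 9 samples was fitted with limma 3.58.1 (R 4.3.3, trend and robust variances), and a call needed a log2 fold change beyond 0.25 and a p of at most 0.05 after Benjamini-Hochberg adjustment over all genes tested. Fold changes on this scale understate those of low genes. Differences between classes were tested per mouse on endocardial minus compared log2 values. Shares were compared with two-sided exact permutation tests. Clusters were made with scanpy 1.11.5, and the scripts were tested on simulated data.

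The rule for endocardial nuclei, the gene lists and the markers were chosen with earlier results of these data known. Genes could be named when among the 12 called with the largest or smallest log2 fold change and no overlap (or, with fewer than 4 calls, the 10 lowest p). They could also be named when on a gene list or when called for a difference between classes. For description, the 20 highest and 10 lowest ratios to other endothelial nuclei were used as well. Timp1, Csf3r, Col25a1, Trim65, Eef1a1 and Cdc14b in I/R against sham were named after their values were seen. Alternatives covered the pseudocount, filter, scaling, rule, depth, samples, replicate block, unit and, chosen after seeing the data, the clusters. Replicate numbers of the labels did not pair the mice. 1 result is not reported here.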

Additional observations from a re-analysis of the deposited data

Results flagged for a closer look

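In 6 genes the change from sham to I/R differed between endocardial nuclei and the nuclei outside the endothelium, by limma's test of the difference itself over 9909 genes. None of the 6 was called within endocardial nuclei alone. The log2 fold change of Adam23 was higher in endocardial nuclei (difference of log2 fold changes 3.17, adjusted p = 0.03374). Ikbke (-2.33, adjusted p = 0.01368), Stab1 (-1.68, adjusted p = 0.01368), Mmp14 (-1.66, adjusted p = 0.04035), Ralgds (-1.63, adjusted p = 0.04035) and Socs3 (-1.61, adjusted p = 0.03374) had a lower log2 fold change in endocardial nuclei than outside the endothelium, all by limma with 3 mice a group.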

How the results depend on the processing

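For the named genes of each comparison that were recomputed, no direction turned over 869 values for 40 genes in I/R against sham, 218 for 10 genes in SBP against I/R and 542 for 24 genes in SBP against sham, but 283, 0 and 148 of these values were no longer past the threshold and 2 in SBP against I/R (H19 without SBP replicate 2 and Dbp without I/R replicate 3) newly were. The 86 genes of I/R against sham became 46 with a filter of 20 UMIs, 22 with at least 4 of the 8 genes, 7 with none of the 6 genes of other lineages, 27 after thinning, 43 in a fit of only the 6 samples and 43 with mean ln values, and lay between 75 and 109 under the other pseudocounts, scalings, filter and cluster sets. Leaving out one mouse gave 22 (without I/R replicate 2) to 158 (without I/R replicate 1), with 28 and 24 without sham replicates 2 and 3 and 54 without SBP replicate 3. The count for SBP against I/R was 0 in all but 2 alternatives, and 0 to 2 with a mouse left out. The 28 genes of SBP against sham became 45 with at least 4 of the 8 genes, 7 with none of the 6 genes, 84 with only the 6 samples, 57 without clusters 5, 7 and 8 and 54 without clusters 4, 5, 7 and 8, and 8 (without SBP replicate 2) to 56 (without I/R replicate 1) with a mouse left out, with 10, 14 and 49 without sham replicate 3, SBP replicate 3 and I/R replicate 2.

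For the difference from other endothelial nuclei in I/R against sham, 1 gene (Tll1) passed with a pseudocount of 5, 2 (Ikbke and Tll1) with a filter of 20 UMIs or at least 4 of the 8 genes and 4 (Ikbke, Prg4, Timp1 and Tll1) without clusters 4, 5, 7 and 8, and 0 to 2 (Ikbke and Tll1, without I/R replicate 1) with a mouse left out. The 6 genes that differed from nuclei outside the endothelium became 3 and 19 with pseudocounts of 0.5 and 5, 0 and 34 without the filter and with one of 20 UMIs, 18 with total UMIs, 12 with at least 4 genes, 2 with none of the 6 genes, 1 after thinning, and 0 (without sham replicate 1 or 3 or I/R replicate 3) to 8 (without SBP replicate 2 or 3) with a mouse left out. In SBP against I/R that count ran from 0 to 1 (Myh11, without SBP replicate 1). The 8 endocardial genes gave 0 calls throughout, but some small differences changed sign, as for Npr3 in I/R against sham (0.13 without I/R replicate 2) and Nrg1 in SBP against sham (-0.02 without SBP replicate 2). Other genes were not recomputed one by one.

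The log2 ratio of the share of all nuclei for I/R against sham turned to 0.3046, and that of endothelial nuclei to 0.5102, with none of the 6 genes. With a mouse left out the share of all nuclei in SBP against sham ran from -0.1314 (without sham replicate 3) to 0.4207 (-0.1125 without SBP replicate 1), and the share of endothelial nuclei from -0.3992 to 0.1201 (without sham replicate 1) in I/R against sham (0.0137 without I/R replicate 1) and from -0.1215 (without sham replicate 3) to 0.3978 in SBP against sham. The causes were not tested. Same-numbered mice did not deviate together (correlations -0.2372 to 0.1121, and not every sample correlated best with its own number), and the replicate block gave 68, 0 and 20 genes in the 3 comparisons and 4 in the difference from nuclei outside the endothelium. Depth limits the genes with few UMIs in sham, and 3 mice a group limit the shares, whose exact p cannot go under 0.1.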

Other observations

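Marker lists of cell types that the rule did not address were also summed over the endocardial nuclei. Epicardial and mesothelial markers (Wt1, Msln, Upk3b, Lrrn4 and Krt19, of which Upk3b and Lrrn4 were at 0 in all 9 samples and Wt1 gave most of the sum) summed to 5.118 to 15.01 CPM in sham, 24.57 to 35.07 CPM in I/R and 21.54 to 27.68 CPM in SBP, so that both groups with ischemia lay above sham. The 5 B cell markers summed to 21.26 to 76.77, 5.545 to 20.46 and 8.368 to 17.62 CPM, highest in sham. The 6 T cell markers gave 20.01 to 50.65, 7.478 to 30.68 and 9.791 to 41.7 CPM, the 5 Schwann markers 46.06 to 67.53, 47.13 to 69.44 and 44.16 to 65.01 CPM, and the 7 smooth muscle and pericyte markers 177.6 to 354.8, 176.5 to 237.2 and 132.2 to 142.3 CPM. Arterial (1916.7 to 3387.0 CPM in I/R), venous (1572.2 to 3125.5 CPM in I/R), capillary (1915.6 to 2855.7 CPM in I/R) and lymphatic sums (71.6 to 153.4 CPM in I/R for the 5 genes outside the rule) overlapped between sham and I/R. These lists were chosen with earlier results known, and their part in the results was not tested.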
